A study of Mus musculus with 2 samples.

Results

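Antisense RNA genes of the mouse adrenal gland were described here, taken as the genes that the GENCODE M21 annotation types as antisense and that had at least 1 read in either of 2 long-read RNA libraries. Of 2959 such genes in the annotation, 653 (22.1%) had reads and 2306 had none, out of 16745 annotated genes of all types with reads. The reads chose the members, so their detection and levels are descriptions and carry no test. The libraries came from adrenal gland tissue of C57BL/6J mice, called WT in a label, and form 1 group with no treatment named. The labels number them as biological replicates 1 and 2 and give separate biosamples that share 1 donor entry. A label describes the tissue as male, while sex was entered as not collected and age as unknown. The p-values below set a difference between the libraries against counting error only and hold no estimate of the spread between animals. In long-read RNA sequencing a cDNA copy of an RNA is read along its length, so that each read is assigned to 1 transcript model.

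An antisense RNA is transcribed from the DNA strand opposite to that of another gene and shares part of its locus. The genes can meet at their starts (head to head), at their ends (tail to tail), or lie one within the other. Some antisense RNAs are spliced and polyadenylated like messenger RNAs, and a few, such as Airn and Kcnq1ot1, are known for silencing imprinted genes in cis. Most have no known function, and their symbols show it. Of the 653 members, 397 carry a Gm number, 153 a Rik clone name and 67 the symbol of another gene with the suffix os, for opposite strand.

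Replicate 1 held 848782 reads and replicate 2 held 545229, so that 1 read was worth 1.18 and 1.83 CPM (counts scaled to a library of 1000000 reads). A count of 0 allows up to 3 reads, which is 3.53 and 5.50 CPM. Intervals are exact 95% intervals, Poisson for CPM and Clopper-Pearson for shares, and cover counting error only. All 6 cortex markers summed to 55748 and 82112 CPM and all 5 medulla markers to 10093 and 23122 CPM, while the 5 kidney markers had 0 reads in both libraries. Markers of erythroid cells (1911 and 128 CPM, 4 of 4 genes) and macrophages (1031 and 282 CPM, 4 of 4 genes) were higher in replicate 1. Adipocyte markers were at 201 and 42.2 CPM (3 of 5 genes), liver markers had 45 and 5 reads (1 of 3 genes), and Schwann cell markers had 7 and 9 reads (3 of 4 genes). The part of these cells in the levels of antisense genes was not tested.

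The named members with at least 30 spliced reads are shown, other than 4930511M06Rik, by the most-read splice junction among those annotated for the gene. Each sequence runs 5′ to 3′ along the antisense RNA and was taken from the GENCODE M21 transcripts. Of its 30 bases, the capitals mark the last 3 of the upstream exon and the first 3 of the downstream exon.
Gm16062: cgagagaagtggAAGAGAatggttttctga
Trmt61b: atgttaacagtaAAGTTTaaccttttaagc
Tug1: ccaaagtgaactACGTCCcgtgcctcctga
Tbx3os1: ctctcgttctgtAAGAGAtgaagaatgacg
Brip1os: ggattgttcgagCAGGTTaaaaggcctgca
Rab10os: gggggtgctgtaCAGGCTgagcaggaagca
The introns they close lie on mm10 at chr11:59810262-59817902 (plus strand) for Gm16062, chr17:71588985-71590487 (minus) for Trmt61b and chr11:3645524-3646556 (minus) for Tug1. Those of the other members lie at chr5:119571540-119574521 (minus) for Tbx3os1, chr11:86201553-86206952 (plus) for Brip1os and chr12:3237413-3237590 (plus) for Rab10os. The Gm16062 junction was crossed by 51 reads in replicate 1 and 8 in replicate 2, and that of Trmt61b by 55 and 2. In the other direction, the Tbx3os1 junction was crossed by 8 and 40 reads, that of Brip1os by 2 and 33, and that of Tug1 by 20 and 33. The Rab10os junction was crossed by 15 and 16 reads, so the libraries gave close counts there. Each of these introns is annotated on the antisense strand because only annotated junctions were taken.

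Antisense genes took a small share of the transcriptome. They held 2428 reads in replicate 1, 0.286% (0.275 to 0.298) of the library, and 871 in replicate 2, 0.160% (0.149 to 0.171), a mean of 0.223% ± 0.0893 (SD, n = 2). Replicate 1 detected 519 members and replicate 2 detected 318. Both libraries read 184 of them, 335 had reads only in replicate 1 and 134 only in replicate 2. Detection was also uneven in long intergenic RNA genes, with 439 in replicate 1 and 271 in replicate 2 of 543 read in either library. For protein-coding genes these were 13021 and 12514 of 13975. Levels were low throughout. At the threshold, 293 members had exactly 1 read, the median was 2 reads, 59 had at least 10 reads and 3 had at least 100. The 10 members of highest mean CPM held 34.9% and 26.3% of all antisense reads. Across the 184 members read in both libraries, Spearman's rank correlation of CPM was 0.53. Across the 59 with at least 10 reads summed it was 0.06; these points share 2 libraries and were chosen by their reads.

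Most antisense reads had no intron. Reads on models with at least 2 exons were 29.0% (27.2 to 30.9) in replicate 1 and 38.8% (35.6 to 42.1) in replicate 2. Of all antisense reads, 62.5% and 54.9% were in the authors' genomic class, which holds reads inside a gene that match none of its spliced structures, and 98.2% and 97.1% of those had a single exon. The known class, which matches an annotated transcript, held 25.1% and 26.8%. Incomplete matches held 3.38% and 4.94%, new combinations of known splice sites (NIC) 2.43% and 3.33%, and models with a new splice site (NNC) 6.63% and 10.1%. By gene, 333 members had only genomic reads, 266 had at least 1 spliced read and 198 had at least 1 known read.

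Other noncoding gene types held fewer genomic reads. In long intergenic RNA genes (lincRNA, 543 of 5854 with reads) the genomic share was 10.4% in replicate 1 and 16.5% in replicate 2, and in processed transcripts 15.9% and 15.7%. In RNA genes that share a promoter with a coding gene it was 17.0% and 31.3%, and in protein-coding genes 4.59% and 3.18%. The antisense interval (60.5 to 64.4 and 51.5 to 58.2) overlapped none of these in either library. Spliced reads made up 14.2% and 34.4% of lincRNA reads, less than the antisense share in each library. In replicate 2 the intervals overlapped (32.3 to 36.5 for lincRNA, 35.6 to 42.1 for antisense genes). The spliced share was 40.0% and 27.0% in RNA genes that share a promoter with a coding gene, and 78.1% and 79.0% in processed transcripts.

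**Figure D1:**
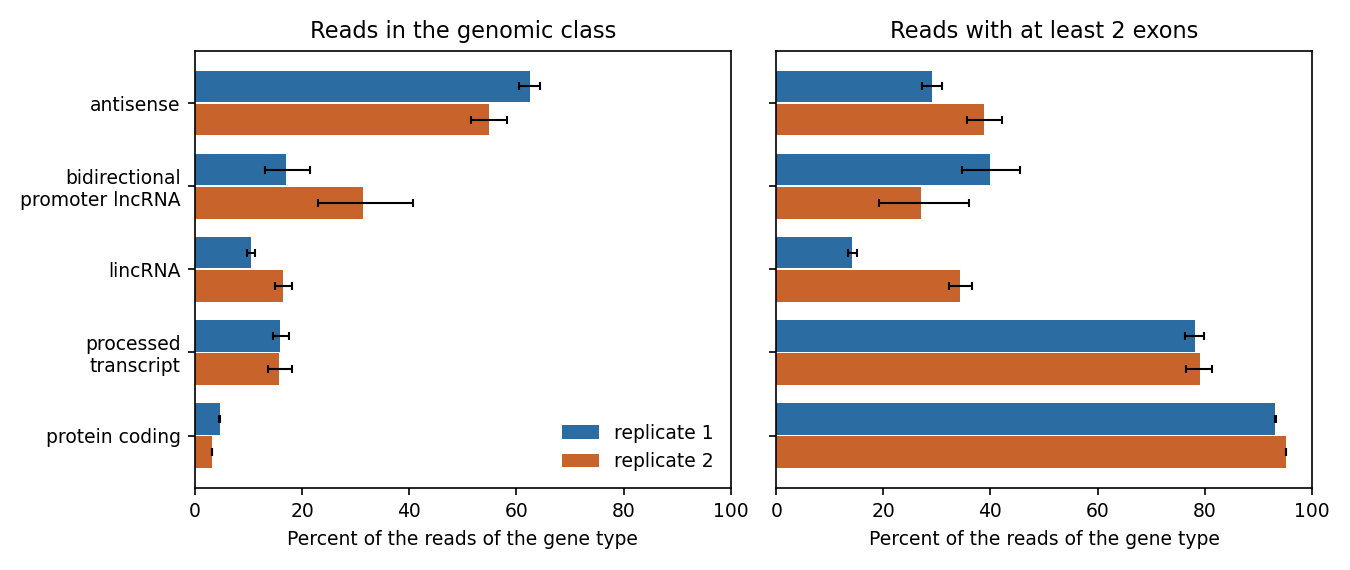
Percent of reads in the genomic class (left) and on models with at least 2 exons (right) for 5 gene types, with bars for each library and exact 95% intervals as error bars. Antisense genes stand highest in the genomic class, at 62.5% and 54.9%, while protein-coding genes stand highest in spliced reads, at 93.2% and 95.2%.

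The introns of the spliced reads were set against those annotated on either strand. Of 705 spliced antisense reads in replicate 1, 84.7% had an intron annotated on the antisense strand and 2 reads (0.284%) an intron annotated on the opposite strand. In replicate 2 these were 84.9% and 1 read (0.296%) of 338. Every model counted here lay on the strand of its antisense gene, and the known and NIC classes use annotated splice sites. The same-strand share therefore follows in part from how reads were assigned and does not test their direction. The reads without introns lay in part within the exons of the facing gene. In replicate 1, 33.9% of 1723 single-exon reads fell wholly inside an exon of a protein-coding gene on the other strand, and 27.7% wholly inside the last exon of such a transcript. In replicate 2 the shares were 23.5% and 18.8% of 533 reads. A further 27.0% and 29.5% touched no base of such an exon, and 74.2% and 80.5% covered at least 1 base of an annotated exon of their own gene. In 52 members every read lay inside a coding gene's exon. Single-exon models show no splice site, so these files give no sequence mark of the strand they came from.

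The members of highest level were led by genes of both kinds. Gm20659 (chr11:101971143-101971859, plus strand) lies inside Dusp3, the gene of a dual-specificity phosphatase. It had 368 reads in replicate 1 (434 CPM, 390.4 to 480.2) and 25 in replicate 2 (45.9 CPM, 29.7 to 67.7). Of its 393 reads, 392 were on the same unspliced model of 1806 bases, found in both libraries, which lies wholly within the last exon of Dusp3; none was in the known class. Without Gm20659 the mean share of antisense genes in all reads was 0.199%.

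Tbx3os1 (chr5:119570130-119671365, minus strand) starts opposite Tbx3, the gene of a T-box transcription factor, and had 107 and 54 reads (126 and 99.04 CPM). Its reads fell into different models in the 2 libraries. In replicate 1, 70 of the 107 reads were on a model of 133 bases inside an exon of Tbx3 at the head-to-head boundary, and 18 reads were spliced. In replicate 2, 45 of the 54 reads were spliced. Spliced Tbx3os1 reads were thus fewer in replicate 1, although the gene total was higher there.

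Gm26724 (chr17:27201032-27203071, plus strand) lies in Lemd2, which encodes a protein of the inner nuclear membrane. It had 102 and 34 reads (120 and 62.4 CPM), all of them genomic and unspliced; in replicate 1 they formed 1 model of 4417 bases that extends beyond the annotated gene. Tug1 (chr11:3639785-3649673, minus strand) is a long noncoding RNA head to head with Morc2a, which encodes an ATPase of chromatin silencing. It had 23 and 42 reads (27.1 and 77.0 CPM), of which 20 and 36 were spliced. Tug1 overlaps 4 other annotated genes on its own strand, so its count is uncertain.

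Gm16062 (chr11:59810080-59818491, plus strand) ends within Cops3, a subunit gene of the COP9 signalosome. It had 57 and 9 reads (67.2 and 16.5 CPM), of which 51 and 8 were known. Adap2os (chr11:80158861-80177629, minus strand), opposite the Arf GTPase-activating gene Adap2, had 67 reads in replicate 1 (78.9 CPM) and 0 in replicate 2, all 67 on 1 unspliced model of 1123 bases. Trmt61b (chr17:71557027-71598755, minus strand) had 60 and 2 reads (70.7 and 3.67 CPM), 55 and 2 of them spliced. It bears the symbol of a tRNA methyltransferase gene, and the annotation types it as antisense. Brip1os (chr11:86201370-86304443, plus strand), which spans the Integrator subunit gene Ints2, went the other way with 3 and 36 reads (3.53 and 66.0 CPM), 2 and 33 of them spliced.

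The other 4 of the 12 highest members were 4930511M06Rik (28 and 16 reads), Gm15337 (32 and 11), Gm43126 (3 and 27) and Rab10os (18 and 17). All 43 reads of Gm15337 lay inside the last exon of Arhgap26. Of the 30 reads of Gm43126, 29 lay inside the last exon of Ccnd2, which encodes cyclin D2. Rab10os, by contrast, was spliced in 15 and 16 of its reads. Among the 59 members with at least 10 reads, 23 had over 50% of their reads spliced, 21 had no spliced read, and 5 had over 90% of their reads inside a coding exon of the other strand.

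**Figure D2:**
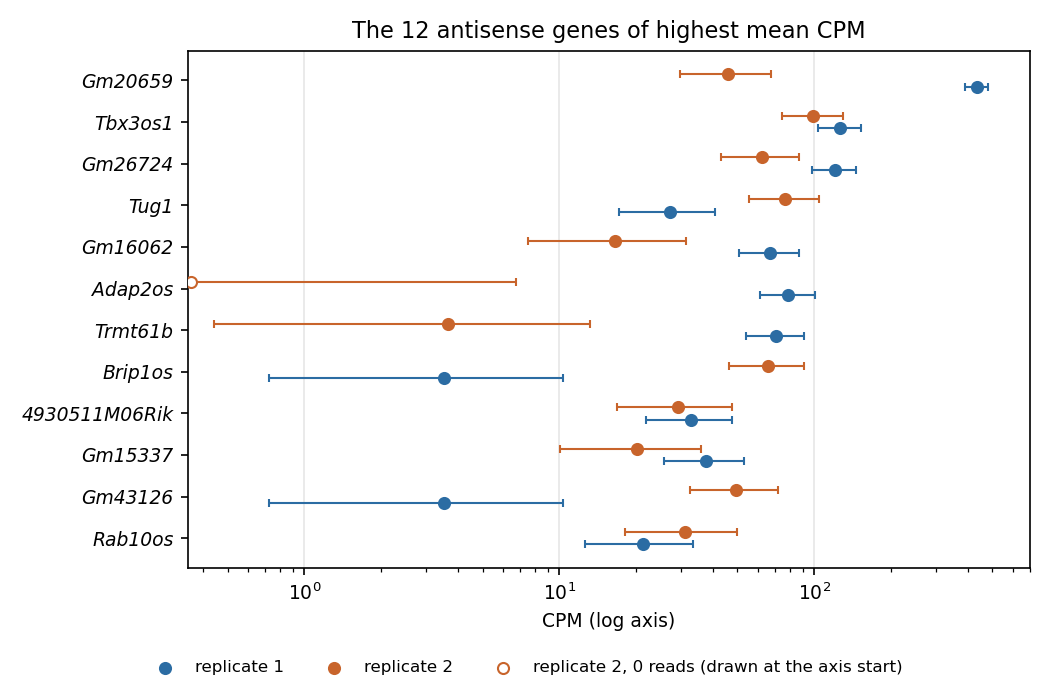
CPM on a log axis of the 12 antisense genes of highest mean CPM, with points for each library and exact 95% Poisson intervals. The libraries' intervals overlap for Tbx3os1, 4930511M06Rik, Gm15337 and Rab10os, while Gm20659, Adap2os and Trmt61b stand higher in replicate 1 and Brip1os, Tug1 and Gm43126 in replicate 2.

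Each member was paired with the protein-coding gene on the opposite strand that it overlaps most. A partner was found for 621 members, on 597 distinct genes; 527 had a single candidate, 94 had several and 32 had none. Exons of the pair shared bases in 437 pairs, by a median of 279 bases, and in 184 pairs no exon base was shared. The partner had reads in 568 pairs. Reads are compared here as molecules, with the values per kilobase of transcript given beside them.

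The coding gene mostly had more reads than its antisense gene. Over both libraries 511 of 621 pairs had fewer antisense than partner reads, 20 had as many and 90 (14.5%) had more. Per kilobase of transcript length the antisense gene was higher in 169 pairs. In pairs with antisense reads, the median antisense share of the reads of the pair was 16.7% in replicate 1 (493 pairs) and 11.8% in replicate 2 (305 pairs). Antisense and partner reads hardly ranked together. Spearman's rank correlation was 0.09 over 431 pairs in replicate 1 and 0.04 over 267 in replicate 2. For spliced antisense reads alone it was 0.08 over 168 pairs and 0.19 over 84, and for genomic reads 0.10 over 291 and 0.08 over 187. These values describe pairs read in the same library, with both genes above 0.

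**Figure D3:**
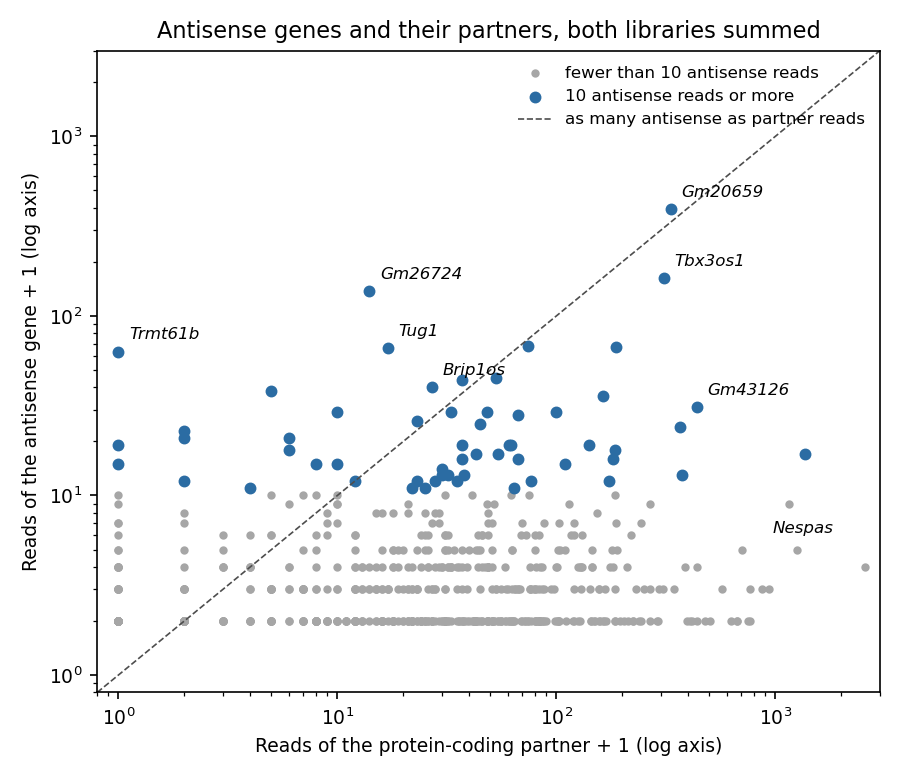
Reads of each antisense gene against those of its protein-coding partner, both libraries summed and 1 added, on log axes; blue points have at least 10 antisense reads and the dashed line marks equal reads. Of the 621 pairs, 90 lie above the line, among them Gm26724, Tug1 and Trmt61b, while Nespas lies far below it.

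Among the 57 pairs with at least 10 antisense reads, the antisense gene had more reads in 19, and in 10 of these it did so in both libraries. Gm26724 faced 6 and 7 reads of Lemd2, so it held 94.4% and 82.9% of the reads of the pair. Tug1 faced 5 and 11 reads of Morc2a (82.1% and 79.2%). Trmt61b faced 0 reads in either library of Spdya, a cell-cycle regulator that acts on cyclin-dependent kinases, and 6330418K02Rik (15 and 3 reads) faced 0 of the sulfotransferase gene Gal3st4. Dhx58os (11 and 3 reads) faced 0 of Zfp385c.

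In the rest, the coding gene was read at a few counts. Gm17276 had 32 and 5 reads against 0 and 4 of Notch3, a Notch receptor gene, and Hoxd3os1 had 17 and 3 against 1 and 0 of the homeobox gene Hoxd3. 4732471J01Rik had 16 and 6 reads against 1 and 0 of Ceacam2; it also spans Lipe, the hormone-sensitive lipase gene, with 8 and 68 reads. Gm49490 had 9 and 11 reads against 2 and 3 of C1qtnf6, and 9530082P21Rik had 11 and 6 against 4 and 1 of Kremen2, a receptor for Dickkopf proteins. All 10 of these antisense genes stood opposite a partner with at most 11 reads in either library. They were chosen for having more reads than that partner in both libraries, which favours partners with few reads.

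The way the genes are placed went with what was read. Inside their partner lay 245 members, 188 were head to head with it, 157 tail to tail, and 31 contained it. Genomic reads made up 84.5% and 77.0% of the reads of members inside their partner, and 75.4% and 74.1% without Gm20659. They made up 45.8% and 46.2% in head-to-head members, 49.3% and 54.3% in tail-to-tail members, and 54.6% and 32.1% in members that contain their partner. The 32 members without a partner had 27.6% and 27.8% genomic reads, from 58 and 18 reads. Spliced reads showed the reverse order at its ends, with 11.1% and 15.04% inside the partner and 60.3% and 61.1% without a partner.

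Detection over all annotated antisense genes followed another order. Reads were found for 15.2% (13.5 to 17.1) of the 1610 that lie inside a coding gene, for 30.9% (27.3 to 34.8) of 608 head-to-head genes and for 37.7% (33.1 to 42.6) of 416 tail-to-tail genes. It was 32.0% (22.9 to 42.2) of the 97 that contain a coding gene and 14.0% (9.80 to 19.2) of the 228 without a partner. Detection was also higher where the partner had more reads. It was 9.60% of 552 genes opposite a coding gene without reads, 16.5% of 780 with 1 to 9 partner reads, 30.1% of 1108 with 10 to 99 and 35.4% of 285 with 100 or more but under 1000. The median partner had 26 reads where the antisense gene was read and 7 where it was not. These shares rest on the reads that chose the members and on pairs of the same libraries.

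**Figure D4:**
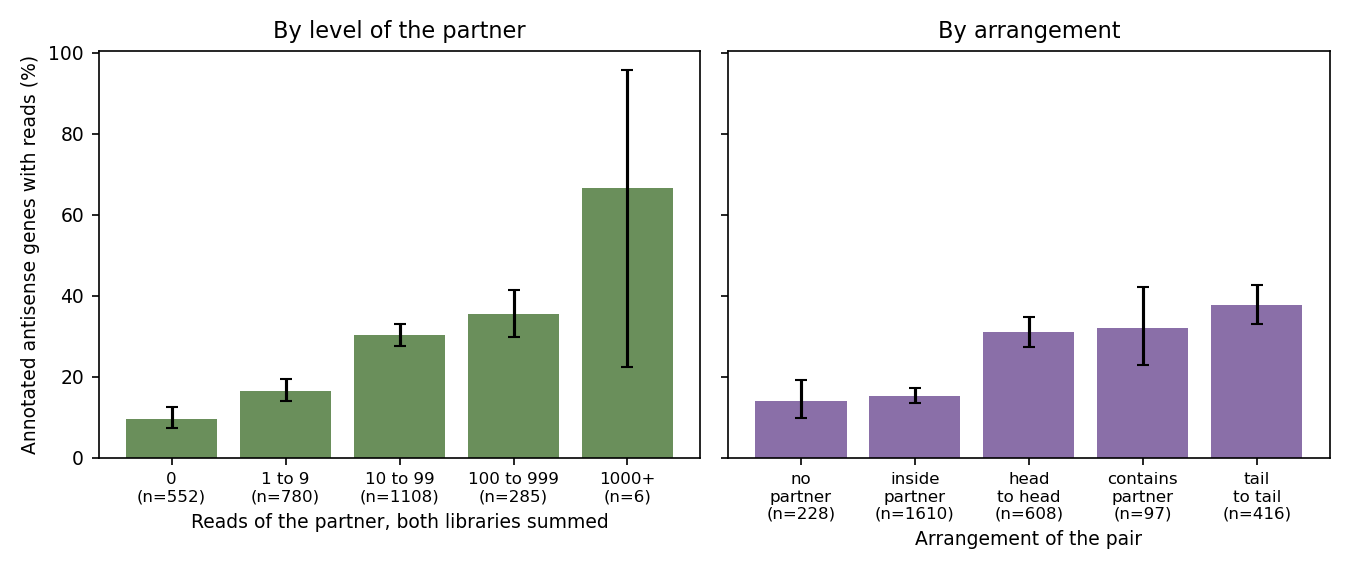
Percent of annotated antisense genes with at least 1 read, by the reads of the protein-coding partner (left) and by the arrangement of the pair (right), with exact 95% intervals. The share is 9.60% opposite unread partners and 35.4% opposite partners with 100 or more but under 1000 reads, and the last bar on the left holds 6 genes only.

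The lists of adrenal genes held few pairs, and few of their genes overlap an annotated antisense gene, namely 1 of 15 steroid synthesis, 4 of 17 cholesterol, 4 of 17 chromaffin and 6 of 17 cortex and zonation genes. None of the 15 listed steroid synthesis genes and none of the 17 cholesterol genes was the partner of a member, apart from the span of 4732471J01Rik over Lipe. Of 17 chromaffin genes, Gata3, a transcription factor of catecholamine-producing cells, had 13 and 10 reads and faced Gm13256 with 2 and 1 reads. Ddc, the enzyme gene that makes dopamine from L-DOPA, had 20 and 25 reads and faced 1700042O10Rik with 1 and 0. Of 17 cortex and zonation genes, Shh, a signal from the outer cortex, had 3 and 45 reads and faced 9530036O11Rik with 3 and 0. The orphan nuclear receptor gene Nr2f1 had 4 and 3 reads and faced A830082K12Rik with 11 and 3. Hif1a, the gene of a hypoxia-response factor, had 16 and 18 reads and faced Gm15283 with 11 and 0, all 11 on 1 unspliced model.

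Of the 9 well-known antisense RNAs listed, 3 were read, all opposite imprinted genes. Airn (chr17:12741311-12860136, plus strand), which silences Igf2r on the paternal chromosome, had 10 and 5 reads against 13 and 23 of Igf2r. It overlaps 2 other genes on its own strand, so its count is uncertain. Kcnq1ot1 (chr7:143203458-143296549, minus strand), which acts on the Kcnq1 domain, had 7 and 3 reads against 2 and 19 of Kcnq1. Of its 10 reads, 9 were assigned to the annotated single-exon transcript of 93092 bases, a length that belongs to the annotation and not to the reads. Nespas had 2 and 2 reads against 756 and 504 of Gnas, the gene of the stimulatory G protein subunit. Tsix, Zeb2os, Wt1os and Foxo6os had 0 reads in both libraries, and Gata2os and Adamtsos matched no gene of that name in the annotation.

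Promoter windows from RefSeq (GRCm38.p6, 250 bases before to 50 after a start) were matched by symbol for 252 members. The RefSeq start nearest to that of GENCODE was taken, with no limit on distance. Some windows lay far off, such as 144556 bases for the member 1600010M07Rik and 834871 for the partner Sox5. Not every window is therefore the promoter of the gene as annotated in GENCODE. Windows of the head-to-head pair Tug1 and Morc2a are shown because their starts face away from each other, with that of Kcnq1ot1 for its repeated CCAAT boxes. Capitals mark GGGCGG or CCAAT, searched on both strands. They lie at chr11:3648765-3649064 (minus strand), chr11:3649187-3649486 (plus) and chr7:143296498-143296797 (minus); the Tug1 window rests on a RefSeq start 859 bases from that of GENCODE.
Tug1: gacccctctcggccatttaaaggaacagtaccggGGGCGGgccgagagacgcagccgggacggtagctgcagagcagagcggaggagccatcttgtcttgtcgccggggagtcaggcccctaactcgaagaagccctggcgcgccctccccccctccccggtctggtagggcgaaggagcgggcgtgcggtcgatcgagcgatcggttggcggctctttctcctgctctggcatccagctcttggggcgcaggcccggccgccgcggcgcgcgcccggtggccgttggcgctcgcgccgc
Morc2a: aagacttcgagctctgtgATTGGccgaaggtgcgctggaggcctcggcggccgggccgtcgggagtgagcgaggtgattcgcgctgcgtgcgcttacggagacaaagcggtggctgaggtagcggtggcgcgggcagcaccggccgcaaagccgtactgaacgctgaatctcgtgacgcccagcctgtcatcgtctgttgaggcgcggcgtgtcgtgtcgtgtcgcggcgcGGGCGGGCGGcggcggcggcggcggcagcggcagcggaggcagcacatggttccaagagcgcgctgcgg
Kcnq1ot1: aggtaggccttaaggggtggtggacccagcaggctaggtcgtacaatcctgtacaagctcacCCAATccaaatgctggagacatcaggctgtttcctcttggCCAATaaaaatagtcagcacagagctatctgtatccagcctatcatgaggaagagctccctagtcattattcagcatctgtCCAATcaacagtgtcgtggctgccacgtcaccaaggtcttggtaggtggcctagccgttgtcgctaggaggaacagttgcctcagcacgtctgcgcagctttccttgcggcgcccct
Over the 252 member windows, GGGCGG was found in 44.4%, against 35.7% of all 32851 RefSeq windows of this length and 60.7% of 460 partner windows. CCAAT was in 34.5% against 37.4%, and TATAAA in 7.94% against 13.6%. TGACGTCA, the cyclic AMP response element, was in 8 member windows (3.17%) against 1.79% of all and 4.13% of partner windows. Of the 8, 6 were among the 82 head-to-head windows, and 5 of these overlapped a partner window that holds the motif too. TCAAGGTCA, a site of the steroidogenic factor Nr5a1, was in 1 member window (0.397%) against 0.423%. Member windows held a median of 12 CpG, those of partners 22 and all windows 7. These are counts of letters in fixed windows and show no binding.

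The libraries were then compared gene by gene. Of the 59 members with at least 10 reads, 44 had a lower and 15 a higher CPM in replicate 2. Each gene's reads were set against the rest of the library in Fisher's exact test (two-sided, Benjamini-Hochberg over 9879 annotated genes, threshold 0.05), and 30 members differed, 24 lower and 6 higher in replicate 2. Over all genes tested the share called was 64.4%, with 27.9% lower and 36.6% higher, so a call as such did not set the members apart. The median log2 ratio of replicate 2 over replicate 1 (CPM + 1) was -1.10 in members and 0.38 over all tested genes. The test takes reads as independent and compares these libraries, not conditions.

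The median member called lower in replicate 2 had 46.7% genomic reads and the median member called higher had 47.2%. Adap2os had a log2 ratio of -6.32 (adjusted p = 3.04e-14 by Fisher's exact test), at least 14.3-fold lower in replicate 2 against a floor of 3 counts. With the trend on annotated length removed its ratio was -3.35 (exact binomial test, adjusted p = 0.0246). On the length of the models read it was -3.34 (exact binomial test, adjusted p = 0.0305). Gm20659 had a log2 ratio of -3.21 (adjusted p = 3.39e-49 by Fisher's exact test), which was -0.0032 with the trend on annotated length removed (exact binomial test, adjusted p = 1) and -2.88 with the trend on the length of the models read. Gm43713, inside Gon4l, had 18 and 0 reads, and Gm15559, facing the pseudouridine synthase gene Pus1, had 12 and 0; all of these reads were genomic, and the call of Gm15559 was lost on the length of the models read (log2 ratio -0.75). In all, 8 called members had 0 reads in replicate 2. That library held fewer reads, and the matching count over all genes tested is not given here. Trmt61b and Gm16062, both mostly spliced, were also lower, with log2 ratios of -3.94 (exact test, adjusted p = 2.93e-10) and -1.96 (exact test, adjusted p = 3.02e-05). Neither was called lower with the length trend removed. Trmt61b was then at -1.07 on annotated length and -0.37 on the length of the models read (exact binomial test, adjusted p = 0.368 and 0.907), and Gm16062 at 0.91 and at 1.83, the latter called higher (exact binomial test, adjusted p = 0.197 and 0.00989).

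The 6 members called higher in replicate 2 were led by Brip1os, with a log2 ratio of 3.89 (exact test, adjusted p = 2.31e-11), and Gm43126, with 3.48 (exact test, adjusted p = 3.67e-08). 1110002L01Rik, facing the kinesin gene Kif3c, had 2 and 11 reads (log2 ratio 2.66), and Gm45894, facing the chromatin cofactor gene Ankrd11, had 5 and 13 (1.85). Gm45894 overlaps a coding gene on its own strand, so its count is uncertain, and its call was lost under TMM scaling (adjusted p = 0.0541 by an exact binomial test), DESeq2 scaling (0.0551) and on the length of the models read (0.796). Tug1 had a log2 ratio of 1.47 (exact test, adjusted p = 9.46e-05), which was 0.70 and 0.41 with either length trend removed (exact binomial test, adjusted p = 0.123 and 0.439). Tbx3os1 was not called in its total (log2 ratio -0.34, exact test, adjusted p = 0.222), but with known, NIC and NNC models only its ratio was 1.52, and under TMM scaling -0.78 (exact binomial test, adjusted p = 0.00246).

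Length moved with this comparison. The median model length per antisense read was 1511 bases in replicate 1 and 2577 in replicate 2, and per protein-coding read 1611 and 2727. Tested members had a median transcript length of 987 bases against 2507 over all tested genes. Members called lower in replicate 2 had a median of 978.5 bases and those called higher 1762. The part of length in the calls was addressed by removing its trend. With the trend of the ratio on annotated length removed, 15 members were higher and 7 lower, and the median of the members was 0.71, while 42.2% of all genes were called. With the trend on the length of the models actually read, an alternative added after the data were seen, 7 were higher and 10 lower, with a median of -0.07, while 33.25% of all genes were called.

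**Figure D5:**
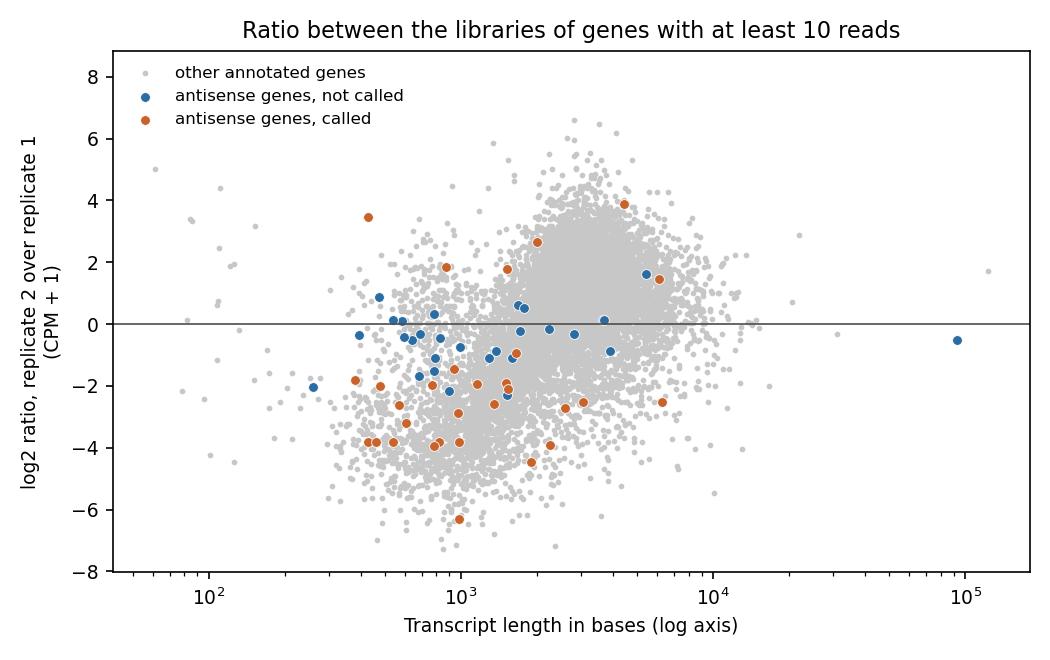
Log2 ratio of replicate 2 over replicate 1 (CPM + 1) against transcript length on a log axis for 9879 genes with at least 10 reads, with 59 antisense genes in colour. Short genes lie lower and long genes higher, the 24 members called lower reach down to -6.32, and the point at far right is Kcnq1ot1 with its annotated 93092 bases.

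A comparison within each locus does not depend on library scaling. It can still depend on length where the genes of a pair differ in length, and no length trend was removed here. The part of length in these shares was not tested. The antisense share of the reads of a pair was set against the library by Fisher's exact test (two-sided), adjusted over 2400 overlapping pairs of annotated genes on opposite strands. Of 472 pairs with a member, 42 (8.90%) differed between the libraries, against 23.6% of all pairs tested. The antisense share was lower in replicate 2 in 32 and higher in 10. No matching split by direction over all pairs tested is given here, so these counts do not set the members apart. Many member pairs have few antisense reads, which limits what the test can call.

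Tbx3os1 made up 51.4% (44.4 to 58.4) of the reads of its pair in replicate 1 and 20.5% (15.8 to 25.9) in replicate 2, where Tbx3 had 101 and 209 reads (exact test, adjusted p = 4.82e-11). With spliced antisense reads only, an alternative added after the data were seen, it was 15.1% (9.22 to 22.8) and 17.7% (13.2 to 23.0), so the share in replicate 1 rests on the 70 reads of the 133-base model and other unspliced reads. A030001D20Rik, a spliced RNA inside Rasip1, the gene of an endothelial Ras-interacting protein, had 16 and 2 reads against 9 and 51, a share of 64.0% and 3.77% (exact test, adjusted p = 1.86e-07). Gm43126 made up 1.21% and 12.4% of the reads it shares with Ccnd2, which had 245 and 191 (exact test, adjusted p = 5.36e-06). Gm20632, which contains the histone gene Hist2h2aa2, had 0 and 6 reads against 64 and 5 (exact test, adjusted p = 2.43e-05). Gm45894 made up 4.13% and 35.1% of its pair with Ankrd11 (exact test, adjusted p = 3.65e-05). In Tug1 and Morc2a the shares of 82.1% and 79.2% were close in the 2 libraries (exact test, adjusted p = 1).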

How the data were processed

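The authors deposited whole, unnormalized read counts per transcript model for each of the 2 libraries, with their models in an annotation file; per the deposited text the genome is mm10 and the annotation GENCODE M21, and per the file headers TALON built the unannotated models. Platform and aligner were not given in the sources used here. Counts were summed per annotated gene over all models and divided by the library total (848782 and 545229 reads). Gene positions, types and exons came from GENCODE M21. A pair needs 1 shared base on opposite strands. Transcript length is that of the known models read, weighted by reads, or else the median annotated length. Log2 ratios add 1 CPM. Length trends were running medians over 401 genes. Tests were checked on simulated counts with counting error only, and changes of share were simulated only in pairs with many reads. The check does not cover pairs with few reads or the spread between animals. Named genes are the 12 of highest mean CPM, up to 10 with at least 10 reads above their partner in both libraries, the 4 largest and 4 smallest called ratios, partners or RNAs in the lists with at least 3 reads, and the 5 pairs of smallest adjusted p in the share test. Members and lists were chosen with earlier results of these data known. Python 3.11.15, numpy 2.4.6, pandas 2.3.3, scipy 1.17.1 and matplotlib 3.10.9 were used, with R 4.3.3, edgeR 4.0.16 (TMM) and DESeq2 1.42.0 (size factors) for scaling alternatives, which were tested with an exact binomial test.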

Additional observations from a re-analysis of the deposited data

How the results depend on the processing

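Most antisense reads are single-exon, so the number of members and their share of reads depend on which models count. Members with reads were 198 with known models only, 295 with known, NIC and NNC models, 266 with models of at least 2 exons and 323 with at least 2 reads in a library, against 653. Their mean share of all reads was then 0.0572%, 0.0809%, 0.0725% and 0.197%, against 0.223%. Leaving out either library gave 318 to 519 members, a share of 0.160% to 0.286%, 305 to 493 members with a partner, 55 to 103 pairs with more antisense than partner reads, and 29.0% to 38.8% spliced reads. A partner remained for 368 members where the overlap had to cover 50% or more of the antisense gene. Pairs with more antisense than partner reads were 169 per kilobase, and 67 where the partner with most reads was taken. Members higher and lower in replicate 2 were 4 and 31 under TMM or DESeq2 scaling, which moved the median log2 ratio over all genes from 0.38 to -0.05 and -0.06. They were 15 and 7 with the length trend removed, of which 11 kept their call and direction, and 7 and 10 with the trend on the length of the read models. With at least 20 reads they were 3 and 11, with at least 1 read 10 and 23, and with known, NIC and NNC models 3 and 12. With those models 18 of 151 member pairs tested differed in antisense share, against 42 of 472. Over all pairs tested these were 448 of 1538 against 566 of 2400. Of all genes tested, 61.4% were called under TMM, 61.3% under DESeq2, 42.2% and 33.25% with the length trends removed, 73.8% with at least 20 reads, 37.5% with at least 1 and 74.4% with known, NIC and NNC models; the cause of these changes was not tested. Where the value or its alternative was called, 6 named genes changed sign with the annotated length trend removed: Tbx3os1 (2.85), Gm26724 (0.035), Gm16062 (0.91), Gm17276 (0.78), 4732471J01Rik (2.24) and Airn (2.53). On the length of the read models, Tbx3os1 (3.14) and Gm16062 (1.83) changed sign, and Tbx3os1 did (1.52) with known, NIC and NNC models only. On annotated length the calls of the named genes Gm20659, Tug1, Trmt61b, Gm15283 and A030001D20Rik were lost. Of the genes that changed sign there, Gm26724, Gm16062 and Gm17276 lost their calls too. Calls of Tug1, Trmt61b, Gm17276, Gm15559, Gm45894 and A030001D20Rik were lost on the length of the read models, and that of Gm45894 under either scaling. Without a change of sign, Gm15337 (-2.29 and -2.19) and Gm49490 (4.04 and 3.06) gained calls on annotated length and on that of the read models. Tbx3os1, Gm15337, Hoxd3os1 and 6330418K02Rik gained calls under TMM or DESeq2 scaling, and Hoxd3os1 did with at least 20 reads. No paired analysis was possible because the series has 1 group. At this depth 293 of 653 members rest on 1 read.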
